A study of Homo sapiens with 15 samples.

Results

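The keratin family was followed in SCC13 cells across 15 arrays. Keratins are the intermediate filament proteins of epithelial cells. Each filament is built from pairs of an acidic type I and a basic type II keratin, and the pair in use marks the kind of epithelium and its state. KRT5 and KRT14 form the pair of dividing basal keratinocytes, KRT1 and KRT10 replace them when the cells leave the basal layer, KRT6A, KRT6B, KRT16 and KRT17 appear in wounded, inflamed and malignant epidermis, and KRT8 and KRT18 belong to simple epithelia and are often made by carcinoma cells. Apart from KRT18, the type I genes lie together on chromosome 17, and KRT18 lies with the type II genes on chromosome 12.

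The members were the 54 type I and type II keratin genes, chosen by symbol and not by any measured value. A probe was taken for a member when its accession in the array design maps to that symbol in the RefSeq gene table of GRCh38.p14. This gave 60 of the 50599 probes, for 52 of the 54 genes and out of 20503 genes with a probe. KRT34 and KRT86 had no probe matched by accession.

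SCC13 is a line of human squamous cell carcinoma of the skin, kept in DMEM with 10% fetal calf serum. All groups carried a plasmid and its blasticidin selection. SCC13-pUNO cells held the empty vector and SCC13-TLR4 cells held pUNO-TLR4GFP, which makes Toll-like receptor 4, the receptor for bacterial lipopolysaccharide (LPS), fused to GFP. The study asked what TLR4 does in these tumour cells, with and without its ligand. Without LPS, 4 arrays came from SCC13-pUNO and 3 from SCC13-TLR4 cells. With ultrapure LPS, given at 10 μg/ml for 24 h, each line had 4 arrays. According to the study's methods, the SCC13-TLR4 cells were the fraction with the highest GFP signal after cell sorting, and cells of each line were seeded in parallel. No source says that the replicates came from separate transfections, so p-values measure the spread between these samples, which may be technical. A difference between the lines therefore cannot be told apart from an effect of transfection, selection or sorting.

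A level is the log2 intensity of a probe minus that of the 75th percentile on its array, so a level of 0 is as bright as that percentile. Brightness also depends on the probe, and levels of different probes say nothing about which transcript is more abundant. A probe counted as detected on an array when the scanner software marked it as well above background. A probe was tested when it was detected on every array of at least 1 group. The 15 arrays had 47.1% to 56.2% of spots above background and lay on 2 slides, 8 on slide 1 and 7 on slide 2. On 1 array, the one labelled SCC13-pUNO replicate 2 without LPS, the TLR4 probe A_24_P69538 stood at 3.04, while it stood between -6.40 and -3.80 on the other 3 untreated SCC13-pUNO arrays and between 2.84 and 3.19 on the 7 SCC13-TLR4 arrays. A second TLR4 probe, A_32_P66881, was above background on none of the 15 arrays. The TLR4 level of that array on the first probe goes against its label. It is called the discordant array here. The main results for KRT14, the KRT17 differences between the lines and the pooled ATF3 difference are given with and without it. Most other values that include this array are given with it only.

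Of 52 keratin genes with a probe, 20 were detected on all 15 arrays, 11 on some arrays and 21 on none. No keratin spot was saturated. All 3 basal keratins (KRT5, KRT14 and KRT15) and 4 of 5 simple keratins (KRT7, KRT8, KRT18 and KRT19) were detected on all arrays, while KRT20, the keratin of intestinal and Merkel cells, was detected on none. Of 5 suprabasal keratins, KRT10 and KRT9 were detected on all arrays and KRT1, KRT2 and KRT77 on none.

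The KRT10 probe had a mean level of 4.25 over the 15 arrays, while the probe of KRT1, the usual partner of KRT10, had a mean of -6.01 and never rose above background. The stress keratins were also divided. KRT17 and KRT16 were detected on all arrays, with mean levels of 3.57 and -0.96. KRT6A, a partner of KRT16, was detected on 7 arrays, with levels between -5.19 and -3.24 over all 15, KRT6B on 2 arrays, and KRT6C on none. The 2 arrays with KRT6B above background were the discordant array, at -1.84, and untreated SCC13-TLR4 replicate 3, at -1.41, and on the other 13 arrays the probe lay at -4.31 or below. The 2 arrays carry the labels of different lines and lie on different slides, but the TLR4 level of the first goes against its label.

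Of 7 keratins of mucosa and cornea, KRT3, KRT13 and KRT78 were detected on all arrays, KRT4 and KRT76 on some. KRT80, a keratin of differentiating epithelia in general, was detected on all arrays with a mean of 3.80. Of 9 root sheath keratins of the hair follicle, KRT73 was detected on all arrays, with 3 others detected on some and 5 on none. Of the 15 hair shaft keratins with a probe, 8 were detected on no array. KRT81, KRT83, KRT85 and KRT39 were the 4 detected on all arrays. The KRT81 probe had a mean level of 3.95, and its range over all arrays was narrow, from 3.67 to 4.19. KRT81, KRT83 and KRT86 are close paralogs, and cross-hybridization between them was not tested.

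**Figure D1:**
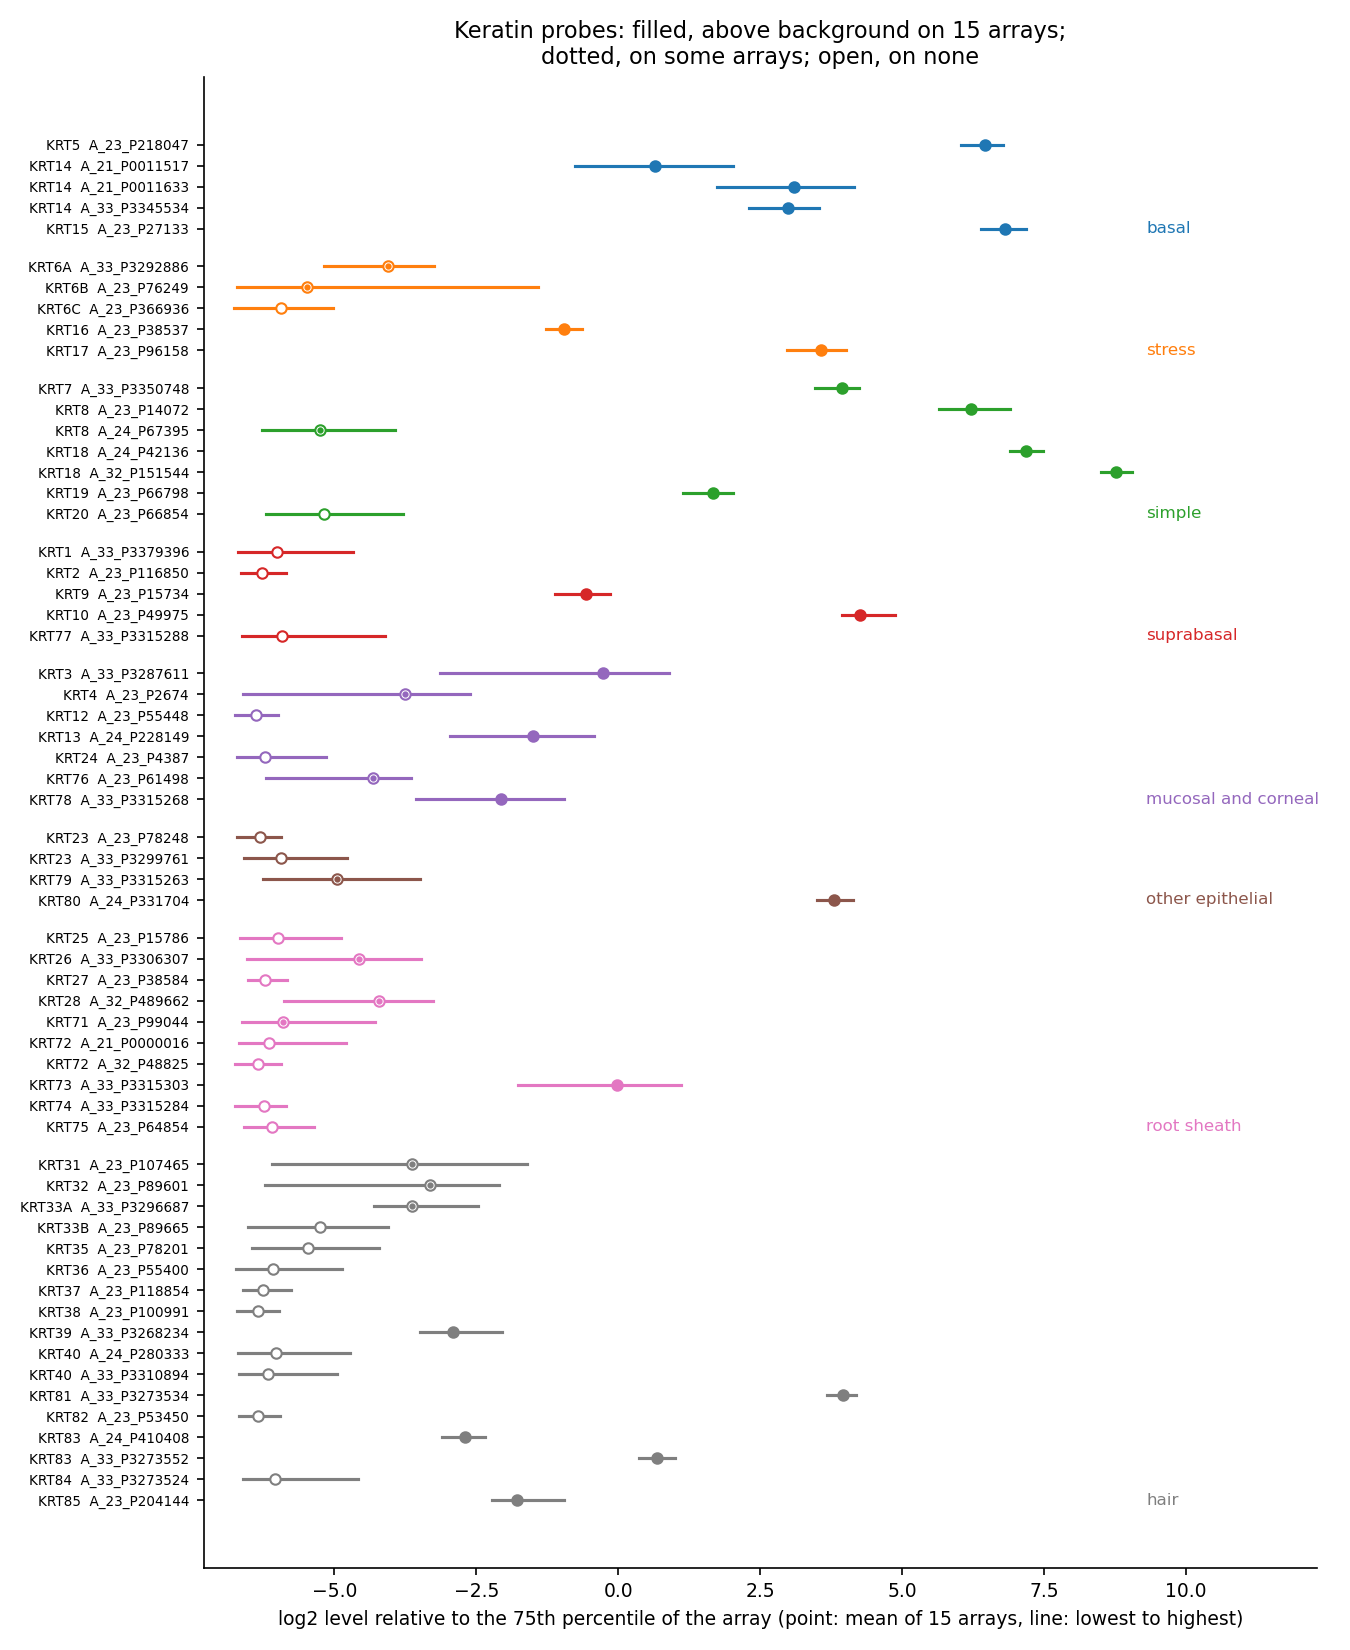
Level of each of the 60 keratin probes, as log2 intensity minus that of the array's 75th percentile (horizontal axis), grouped by keratin list. Points are means of 15 arrays and lines run from the lowest to the highest array; filled points were above background on 15 arrays, dotted points on some and open points on none. The probes of the basal and simple keratins are filled with the exceptions of KRT20 and 1 of the 2 probes of KRT8.

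Different probes of 1 gene did not always report alike. The 2 probes of KRT18 had means of 8.76 and 7.19 and both were detected on all arrays. Of the 2 probes of KRT8, A_23_P14072 had a mean of 6.20, while A_24_P67395 was above background on 1 array and was not tested. KRT14 had 3 probes, all detected on all 15 arrays, with means of 3.10 (A_21_P0011633), 2.99 (A_33_P3345534) and 0.64 (A_21_P0011517).

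The cells carried the markers of keratinocytes. All 8 keratinocyte markers, KRT5 and KRT14 among them, were detected on all arrays, with a summed intensity between 543 and 776 times the 75th percentile of an array. Of 7 fibroblast markers, COL1A2, COL3A1, DCN, LUM, PDGFRA and PDGFRB were detected on no array and the 7 together summed to between 0.0743 and 0.301 times the 75th percentile. Of 6 melanocyte markers, TYRP1 and SOX10 were detected on no array, PMEL on all, and MLANA, TYR and DCT on some. The 6 together summed to between 0.380 and 0.664 times the 75th percentile. No leukocyte or endothelium marker with a probe was below background on every array. Probes for PTPRC, CD14 and CD68 of leukocytes and CDH5 of endothelium were above background on all arrays, with the 4 leukocyte markers that had a probe summing to between 0.551 and 1.04. The part of other cells in the keratin results was not tested, and a change in RNA per cell cannot be told apart from a change in the share of cells that make it.

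The first question was whether the keratins differ between SCC13-TLR4 and SCC13-pUNO cells. KRT14 was the keratin with the largest difference in LPS-treated cells, and all 3 of its probes were higher in SCC13-TLR4 cells. For KRT5, its partner in the basal filament, the differences were 0.07 and 0.27 with intervals that include 0. Within slides KRT5 also read higher in SCC13-TLR4 cells, by the smaller values given below. With limma and adjustment over all 22685 tested probes, 0 of the 28 tested keratin probes, for 24 genes, passed an adjusted p of 0.05 in any comparison, and the calls for KRT14 that other fits gave are described below. Whole-array calls were as rare, since 0 probes passed in untreated cells (0% called), 0 in LPS-treated cells (0% called) and 5 in both conditions pooled (0.022% called). The TLR4 probe A_24_P69538 itself was not called in untreated cells (6.32, limma adjusted p = 0.999) or LPS-treated cells (8.86, 0.312), and was called pooled (7.59, 0.0485). Without the discordant array its limma adjusted p was 1.4e-05 in untreated and 1.4e-06 in LPS-treated cells. A lack of calls in the fit over all arrays therefore does not show a lack of difference.

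At an unadjusted limma p under 0.05, 1 keratin probe passed in untreated cells, where 2.5% of all tested probes passed in either direction. In LPS-treated cells 5 keratin probes passed (2.72% of all probes), and with both conditions pooled 4 passed (4.33% of all probes). Every one of these was higher in SCC13-TLR4 cells, and 1.62%, 1.27% and 1.96% of all probes passed in that direction in the same order. In untreated cells it was A_21_P0011633 of KRT14. In LPS-treated cells they were the 3 probes of KRT14, KRT17 and 1 probe of KRT83, and pooled they were the 3 of KRT14 and the same probe of KRT83. The median log2 difference over the 28 probes was 0.09 in untreated cells, 0.02 in LPS-treated cells and -0.03 pooled, beside medians of -0.02, -0.01 and -0.01 over all probes. Their median absolute difference was 0.26 in LPS-treated cells, the 1 comparison for which it is given, beside 0.11 over all probes. Some of the larger differences there were uncertain, such as KRT32 at -0.74 ± 0.76 (SE) and KRT4 at 0.49 ± 0.75. The median absolute difference therefore does not show a change across the family.

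KRT14 was read on every array. For probe A_21_P0011633 the levels on untreated SCC13-pUNO arrays 1 to 4 were 2.84, 3.91, 2.48 and 2.07, and on untreated SCC13-TLR4 arrays 1 to 3 they were 4.05, 3.70 and 3.37. After LPS the SCC13-pUNO arrays read 2.89, 2.19, 1.74 and 1.88, and the SCC13-TLR4 arrays 4.00, 4.15, 3.82 and 3.44. The groups did not overlap after LPS. In untreated cells they overlapped through 1 array, the discordant array, which lay among the SCC13-TLR4 arrays.

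Probe A_33_P3345534 showed the same order in a narrower range. Untreated SCC13-pUNO cells read 2.78, 3.38, 2.81 and 2.49 and untreated SCC13-TLR4 cells 3.43, 3.21 and 3.09. With LPS the values were 2.99, 2.69, 2.41 and 2.31 in SCC13-pUNO cells and 3.33, 3.53, 3.21 and 3.14 in SCC13-TLR4 cells. Here too the value of 3.38 belonged to the discordant array.

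On the third probe, A_21_P0011517, untreated SCC13-pUNO cells read 0.54, 1.09, 0.55 and -0.76 and untreated SCC13-TLR4 cells 1.17, 0.95 and 1.10. LPS-treated SCC13-pUNO cells read -0.27, 0.40, -0.71 and -0.39, and LPS-treated SCC13-TLR4 cells 1.64, 2.03, 0.63 and 1.67. On all 3 probes the discordant array lay inside the range of untreated SCC13-TLR4 cells and above the other 3 untreated SCC13-pUNO arrays. The 3 probes read the same gene in the same RNA and are not separate evidence of the difference.

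**Figure D2:**
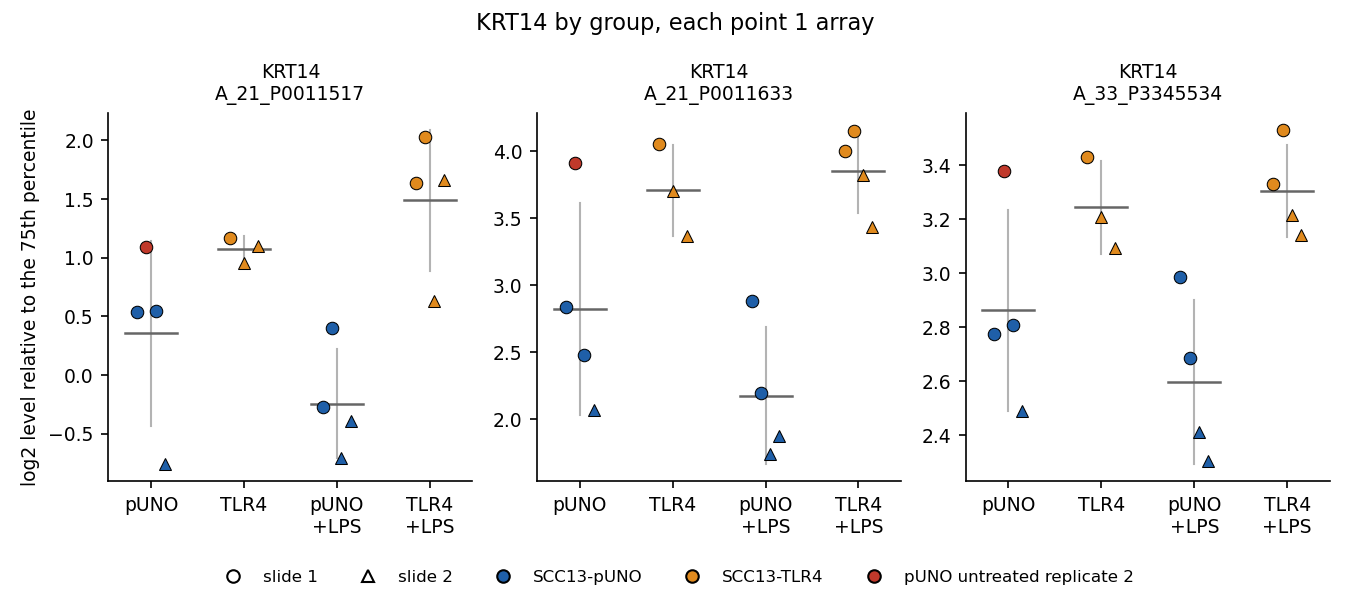
KRT14 level on each array for its 3 probes (vertical axis, log2 intensity minus that of the array's 75th percentile), by group. Circles are arrays of slide 1 and triangles of slide 2, horizontal lines are group means, vertical lines 1 SD to each side, and red marks the discordant array. After LPS every SCC13-TLR4 array lies above every SCC13-pUNO array on each probe, and the red point lies among the untreated SCC13-TLR4 arrays.

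After LPS, KRT14 was higher in SCC13-TLR4 cells by 1.68 ± 0.35 (SE) on the log2 scale with A_21_P0011633 (3.20-fold, limma adjusted p = 0.458), by 1.73 ± 0.38 with A_21_P0011517 (3.32-fold, adjusted p = 0.525) and by 0.71 ± 0.19 with A_33_P3345534 (1.63-fold, adjusted p = 1.00). Each probe was higher in 16 of 16 pairs of arrays, with a two-sided exact permutation p of 0.0286, the smallest that 4 against 4 arrays allow. When labels were permuted within slides, a test added after seeing the data, each KRT14 probe had an exact permutation p of 0.0556, again the smallest possible. KRT5 and KRT17 reached the same exact permutation p of 0.0556 in this test, while KRT15 and KRT16 had 0.167 and 0.278. At this floor the test cannot set KRT14 apart from KRT5 or KRT17. The 3 probes of KRT14 agreed on direction and differed on size. Of the 28 keratin probes, 4 had groups that did not overlap and were higher in SCC13-TLR4 cells, against 0.56% of all tested probes, and these were the 3 of KRT14 and KRT83 A_24_P410408. None was lower without overlap, against 0.727% of all probes.

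In untreated cells the differences of KRT14 were 0.88 ± 0.38, 0.72 ± 0.41 and 0.38 ± 0.21 in the same order of probes, each with an adjusted p of 0.999 and exact permutation p of 0.143, 0.143 and 0.171. Leaving out 1 array at a time gave 0.63 to 1.25, 0.35 to 0.97 and 0.26 to 0.55, with the 0.35 found without untreated SCC13-pUNO replicate 4. Without the discordant array the differences were 1.25, 0.97 and 0.55, and all 9 pairs of arrays were higher in SCC13-TLR4 cells, although 3 against 3 arrays cannot give an exact permutation p below 0.1. With all arrays, KRT76, a keratin of the oral mucosa, was the 1 keratin probe higher without overlap in untreated cells (2.15% of all probes). It was tested because it was above background on all 3 untreated SCC13-TLR4 arrays, the group where it read higher, and on 4 of the other 12 arrays, so this difference follows in part from the filter and supports nothing. After LPS its groups overlapped. Without the discordant array the 3 KRT14 probes, which were above background on every array, were also higher without overlap, where 4.16% of all probes were.

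Pooled over both conditions, KRT14 was higher by 1.28 ± 0.26 (limma adjusted p = 0.227), 1.23 ± 0.28 (0.461) and 0.54 ± 0.14 (0.771), with exact permutation p of 0.00286, 0.00245 and 0.0049 when labels were permuted within conditions. Permuted within conditions and slides, each KRT14 probe had an exact permutation p of 0.00231 with all arrays and of 0.00309 without the discordant array, in both cases the smallest possible. Without the discordant array the first of these rose to 1.46 with an adjusted p of 0.0136, in a fit that called 0.101% of all probes, and the exact permutation p was 0.00143 for each probe. The other 2 probes stood at 1.35 (adjusted p = 0.193) and 0.63 (0.154). Over all alternatives run for the pooled difference of A_21_P0011633, the adjusted p lay between 0.00019 and 0.738. In that subset 3 of 28 keratin probes were higher without overlap in both conditions at once, all of them of KRT14, where 0.163% of all probes were.

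The slides bear on this result, since a number of keratin probes differed between them. The lines were spread over both slides, with replicates 1 and 2 of each LPS-treated group on slide 1 and 3 and 4 on slide 2, and the untreated groups divided unequally, with 3 SCC13-pUNO arrays and 1 SCC13-TLR4 array on slide 1. Within slide 1 the LPS-treated lines differed by 1.54 on A_21_P0011633, and within slide 2 by 1.82. The untreated lines differed by 0.98 and 1.46. All 3 probes were higher in SCC13-TLR4 cells on both slides and in both conditions.

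With slide as a factor in the fit, all 3 KRT14 probes passed the threshold in the pooled comparison, with differences of 1.42 (adjusted p = 0.0359), 1.38 (0.0359) and 0.62 (0.0374), in a fit that called 0.097% of all probes. With a slide term and without the discordant array, the pooled differences were 1.56 (adjusted p = 0.00019), 1.46 (0.0114) and 0.69 (0.00111), where 0.216% of all probes were called. The same fit called all 3 probes in LPS-treated cells (0.097% of all probes), and A_21_P0011633 alone in untreated cells, at 1.44 with an adjusted p of 0.0229 (0.0485% of all probes). KRT14 was the only keratin gene called in these fits.

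KRT5, KRT15 and KRT16 were read beside KRT14. KRT5, the type II partner of KRT14, stood between 6.24 and 6.57 on untreated SCC13-pUNO arrays, between 6.34 and 6.65 on untreated SCC13-TLR4 arrays, between 6.04 and 6.56 on LPS-treated SCC13-pUNO arrays and between 6.39 and 6.78 on LPS-treated SCC13-TLR4 arrays. Its ranges overlapped in both conditions. The difference was 0.07 in untreated cells (95% interval -0.24 to 0.39) and 0.27 in LPS-treated cells (-0.02 to 0.56), where the exact permutation p was 0.143. Within slides KRT5 was higher in SCC13-TLR4 cells by 0.20 and 0.03 without LPS and by 0.22 and 0.32 with LPS, for slide 1 and slide 2. KRT15, a type I keratin of basal cells and hair follicle stem cells, differed by -0.19 (-0.55 to 0.16) and by -0.21 (-0.53 to 0.12). Whether KRT14 differed from its partner was not tested.

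KRT9, KRT14, KRT16 and KRT17 follow each other in this order at the end of the chromosome 17 keratin cluster, in the order of the RefSeq table. KRT17 had levels of 3.68, 3.93, 3.54 and 3.13 in untreated SCC13-pUNO cells and 3.96, 3.59 and 3.46 in untreated SCC13-TLR4 cells. After LPS these were 3.75, 3.33, 3.07 and 2.97, against 4.01, 4.01, 3.71 and 3.35. The groups overlapped in both conditions, and the SCC13-pUNO array with 3.93 was again the discordant one. KRT17 differed by 0.10 (95% interval -0.40 to 0.61) in untreated cells and by 0.49 (0.02 to 0.95) in LPS-treated cells, with exact permutation p of 0.743 and 0.114 and limma adjusted p of 0.999 and 1.00. Within slides it was higher in SCC13-TLR4 cells by 0.25 and 0.40 without LPS and by 0.47 and 0.51 with LPS, for slide 1 and slide 2. Without the discordant array the untreated difference was 0.22 (exact permutation p = 0.5), and the pooled difference went from 0.29 (exact permutation p = 0.101) to 0.35 (0.0486). With labels permuted within conditions and slides, the exact permutation p of the pooled difference was 0.00231 for KRT17, 0.0301 for KRT5, 0.0856 for KRT15 and 0.657 for KRT16. Without the discordant array these were 0.00309, 0.0278, 0.0463 and 0.898, and none is adjusted for the 7 probes tested in this way. Both values of KRT17 are the smallest possible, as were those of KRT14, so the test cannot set KRT14 apart from KRT17.

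KRT16, which is induced together with KRT17 in stressed epidermis, differed by -0.14 (-0.55 to 0.27) in untreated and by 0.09 (-0.29 to 0.47) in LPS-treated cells. KRT9, the keratin of palm and sole, differed by 0.14 (-0.32 to 0.59) and by 0.26 (-0.16 to 0.68). The intervals of KRT16 and KRT9 include 0. KRT14, KRT16 and KRT17 have closely similar coding sequences, and how far their probes cross-hybridize was not tested.

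**Figure D3:**
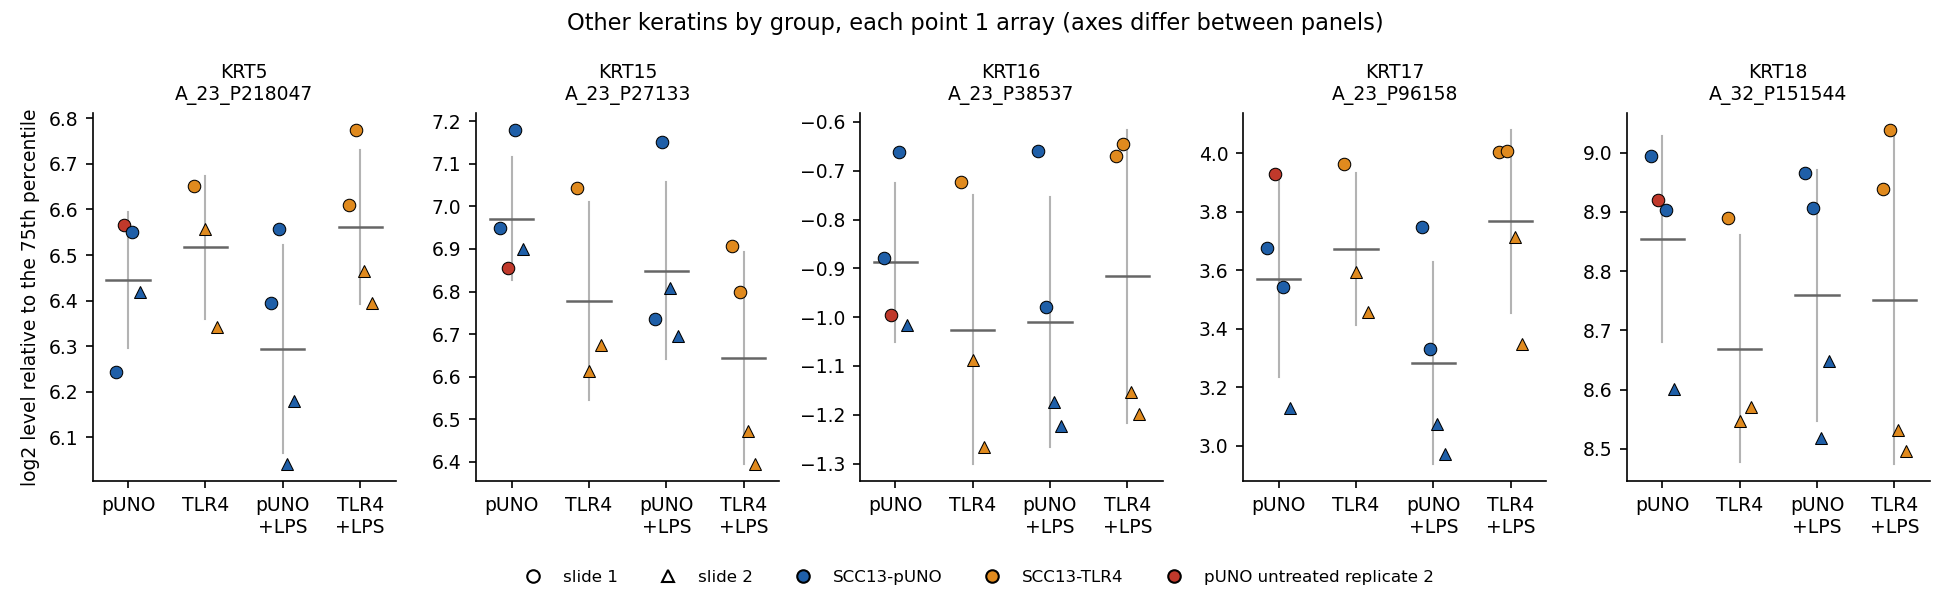
Levels of KRT5, KRT15, KRT16, KRT17 and KRT18 on each array (vertical axis, log2 intensity minus that of the array's 75th percentile, with a different scale in each panel), by group. Circles are arrays of slide 1 and triangles of slide 2, horizontal lines are group means, vertical lines 1 SD to each side and red marks the discordant array. The groups of both lines overlap in each panel, and the arrays of slide 2 tend to the lower end.

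For the simple keratins the intervals of the differences between the lines include 0. KRT18 differed by -0.19 (95% interval -0.55 to 0.18) in untreated and -0.01 (-0.35 to 0.33) in LPS-treated cells with its brighter probe, and its partner KRT8 by -0.28 (-0.83 to 0.28) and -0.12 (-0.64 to 0.39). KRT7 differed by -0.15 (-0.57 to 0.26) and -0.09 (-0.48 to 0.29), and KRT19 by -0.10 (-0.47 to 0.27) and -0.26 (-0.60 to 0.08). The intervals of KRT18 reach no further than 0.55 in either direction. KRT10, of the suprabasal list, differed by 0.07 (-0.36 to 0.49) and -0.15 (-0.54 to 0.24).

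KRT83, a type II hair keratin, was represented by 2 probes that did not report alike. A_24_P410408 read -2.75, -2.90, -2.86 and -2.35 in untreated SCC13-pUNO cells and -2.55, -2.38 and -2.74 in untreated SCC13-TLR4 cells. After LPS it read -2.87, -3.03, -3.10 and -2.68 in SCC13-pUNO cells and -2.65, -2.45, -2.61 and -2.59 in SCC13-TLR4 cells. The groups did not overlap after LPS, with a difference of 0.34 ± 0.14 (limma adjusted p = 1.00). The other probe, A_33_P3273552, was brighter, with a mean of 0.68, and differed by 0.04 (95% interval -0.28 to 0.35) after LPS.

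**Figure D4:**
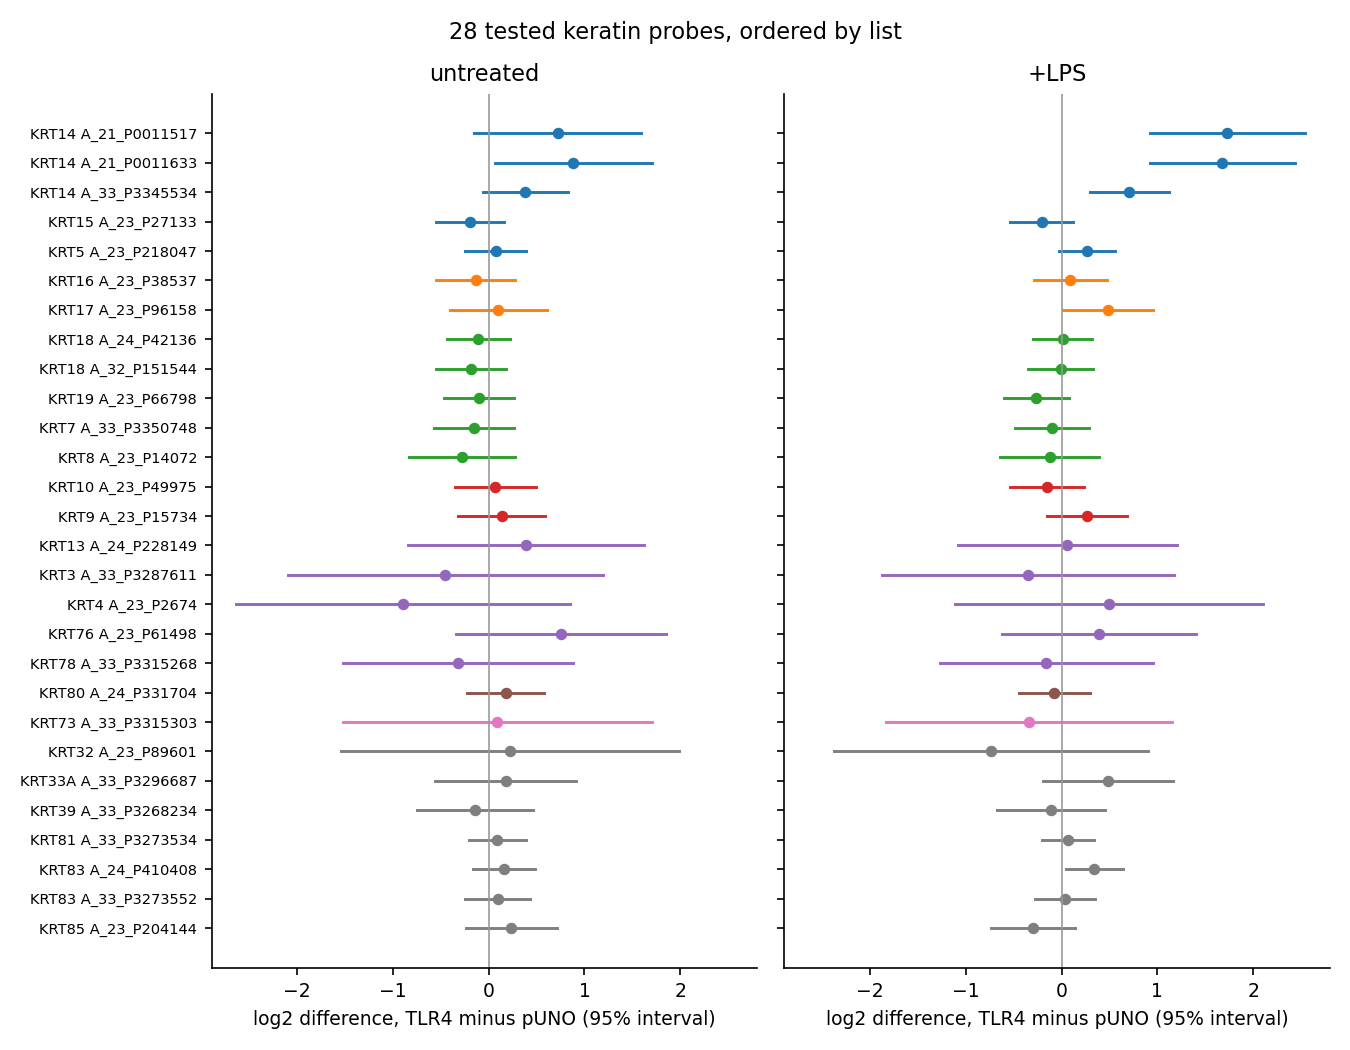
Log2 difference between SCC13-TLR4 and SCC13-pUNO cells (horizontal axis) for the 28 tested keratin probes, without and with LPS, from the limma fit over all arrays. Points are differences and lines their 95% intervals, with colours for the keratin lists. After LPS the 3 KRT14 probes, with differences of 1.73, 1.68 and 0.71, have intervals above 0.

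The second question was whether the keratins respond to LPS. In SCC13-pUNO cells 0 of 28 keratin probes passed an adjusted p of 0.05 (0% of all probes) and 1 passed an unadjusted limma p under 0.05 (2.48% of all probes in either direction, and 2.05% higher after LPS). It was KRT85, a hair keratin, which was higher after LPS by 0.45 ± 0.20 and stood at -2.02, -2.00, -2.10 and -1.83 without LPS against -1.88, -1.76, -1.56 and -0.95 with it, so that the groups overlapped. Without LPS-treated SCC13-pUNO replicate 4, the array at -0.95, the difference was 0.25. In SCC13-TLR4 cells 0 keratin probes passed the adjusted and 0 the unadjusted threshold, where 0% and 1.33% of all probes did. No keratin probe had groups without overlap after LPS in either line. The share of all probes without overlap was 0.965% higher and 0.309% lower in SCC13-pUNO cells, and 1.05% higher and 0.736% lower in SCC13-TLR4 cells.

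KRT14 read lower after LPS in SCC13-pUNO cells by 0.65, with a 95% interval of the change from -1.41 to 0.11 on A_21_P0011633, and in SCC13-TLR4 cells the change was 0.14 (-0.68 to 0.96). The difference between these responses was 0.80 (-0.32 to 1.91) on this probe, 1.01 (-0.18 to 2.20) on A_21_P0011517 and 0.33 (-0.28 to 0.93) on A_33_P3345534, with limma adjusted p of 1.00. It depended on the discordant array. Without that array the change in SCC13-pUNO cells was -0.29 (-0.91 to 0.33) and the difference between the responses was 0.43 (-0.45 to 1.31), and with slide as a factor as well the latter was 0.24 (-0.30 to 0.78). For the response to LPS, 0 keratin probes differed between the lines at an adjusted p of 0.05 (0% of all probes) and 0 at an unadjusted p under 0.05 (1.32% of all probes). The stress keratins KRT16 and KRT17 changed by -0.12 and -0.29 with LPS in SCC13-pUNO cells and by 0.11 and 0.10 in SCC13-TLR4 cells, all with intervals that include 0.

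Spread between arrays followed the slides for part of the family. Between slides, 5 of the 28 tested probes (17.9%) were higher on slide 2 without overlap, against 8.69% of all probes, and 5 (17.9%) were higher on slide 1, against 12.9%. Higher on slide 2 were KRT73, KRT3, KRT13, KRT80 and KRT10, by 1.84, 1.77, 1.31, 0.43 and 0.36 as means of the differences within groups. On the KRT73 probe the 8 arrays of slide 1 lay between -1.76 and -0.31 and the 7 arrays of slide 2 between 0.52 and 1.10.

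Higher on slide 1 without overlap were KRT7, KRT16, KRT19 and both probes of KRT18. KRT18 was lower on slide 2 with both probes, with differences of -0.37 and -0.28, KRT7 with -0.39, KRT16 with -0.38 and KRT19 with -0.34. The probes of KRT14 went the same way, with -0.73, -0.67 and -0.38, and KRT17 with -0.50, though their slides overlapped. No label says that RNA was prepared apart for each slide, and the reason for the difference was not tested.

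Within slide 1, untreated SCC13-TLR4 replicate 1 stood apart on KRT3. This probe read -3.14 on it and between -1.03 and -0.01 on the other 7 arrays of slide 1. The same array was also the lowest of slide 1 on KRT4 (-6.61), KRT78 (-3.57) and KRT73 (-1.76). This array is the single untreated SCC13-TLR4 array on slide 1, and KRT3 differed between the untreated lines by -2.57 within slide 1 and by -0.04 within slide 2.

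**Figure D5:**
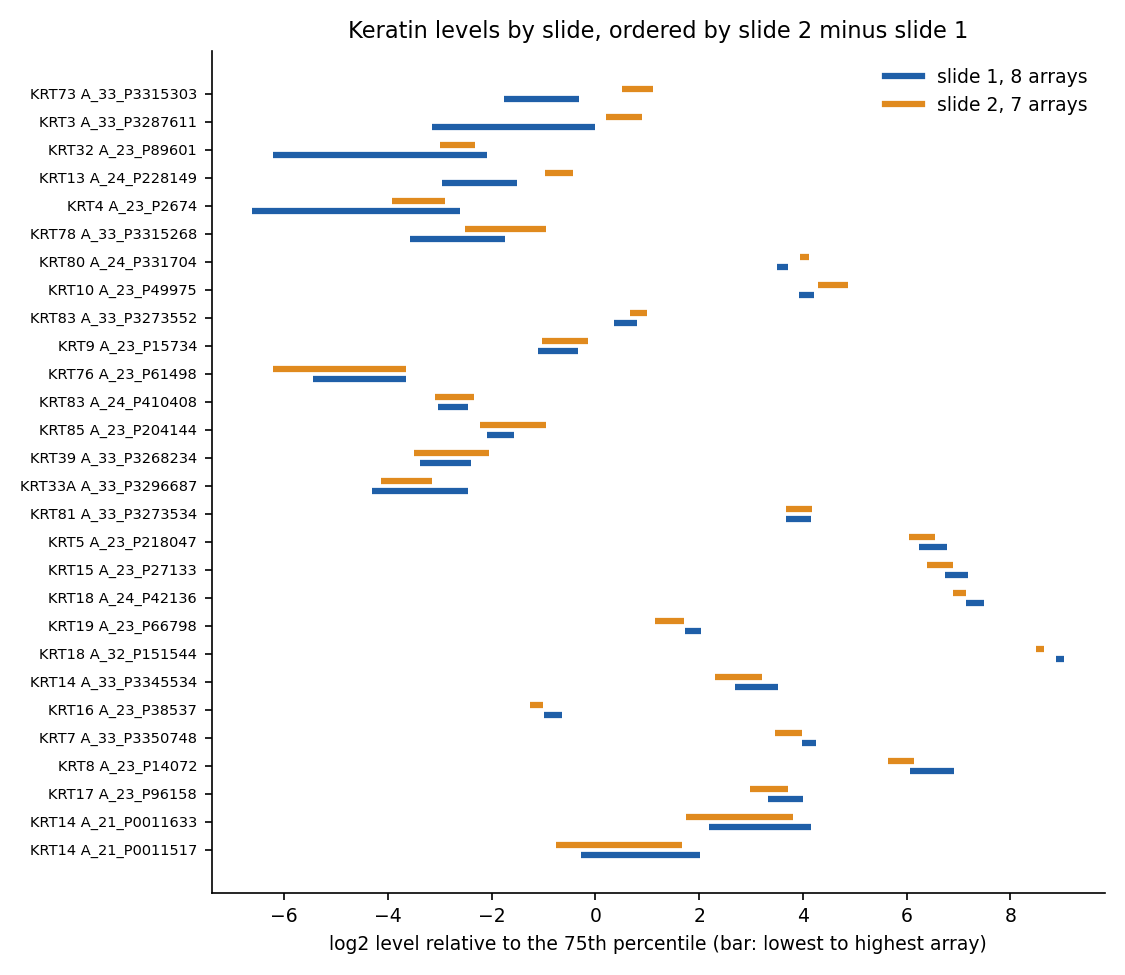
Range of each tested keratin probe on the 8 arrays of slide 1 (blue) and the 7 arrays of slide 2 (orange), as log2 intensity minus that of the array's 75th percentile (horizontal axis), ordered by the mean difference within groups. KRT73 lies between -1.76 and -0.31 on slide 1 and between 0.52 and 1.10 on slide 2, and the ranges of KRT14 on both slides overlap.

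Genes that act with keratins were examined as lists, each gene by its brightest probe. In the fit over all arrays 2.5%, 2.72% and 4.33% of all probes passed an unadjusted limma p under 0.05 between the lines, in untreated cells, in LPS-treated cells and pooled. Of 13 filament partners (plakins, plakophilins and other proteins that tie or bundle keratin filaments), 10 were tested, and 0 passed in any comparison of this fit, with a median difference between the lines of -0.11 in untreated and 0.02 in LPS-treated cells. Of 15 other intermediate filament genes, 7 were tested and 0 passed. Of 12 genes listed as keratin gene regulators, 10 were tested, and 1, ATF3, a stress-induced transcription factor, passed in each comparison of the lines. The study had already reported ATF3 as upregulated in SCC13-TLR4 cells from these arrays, so its passing is not separate evidence. Whether ATF3 acts on keratin genes was not tested.

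ATF3 was higher in SCC13-TLR4 cells by 1.06 ± 0.48 without and 1.30 ± 0.44 with LPS (limma adjusted p of 0.999 and 1.00). Pooled, its difference was 1.18 (adjusted p = 0.862), and without the discordant array it was 1.43 with an adjusted p of 0.0462. The other 2 probes of ATF3 differed by 0.76 and 0.36 without LPS and by -0.08 and 0.32 with LPS, and without the discordant array their pooled differences had an adjusted p of 0.999.

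With a slide term and without the discordant array, more of these genes passed the unadjusted threshold, in a fit where 5.75% of all probes passed in untreated cells, 6.44% in LPS-treated cells and 11.2% pooled. DST and EPPK1, both plakins, passed in untreated cells, at 0.31 and 0.43, and pooled, at 0.23 and 0.19, and DST also with LPS, at 0.15. Other probes of DST did not all pass. A_33_P3339650 passed in untreated cells (0.28) and pooled (0.21) but not with LPS (0.15). A_23_P303718 passed in none of these, at 0.25 in untreated cells, 0.03 with LPS and 0.14 pooled. BFSP1, a lens filament gene, passed with LPS at -0.29 and pooled at -0.23. TP63, a regulator of basal keratinocytes, passed in untreated cells at 0.43 and pooled at 0.35. EPPK1 also passed for the change with LPS in SCC13-TLR4 cells, at -0.31 (2.46% of all probes), and for the difference between the responses of the lines, at -0.50 (2.03% of all probes). In this fit ATF3 was the 1 gene of these lists past the adjusted threshold, pooled, at 1.39 with an adjusted p of 0.0465.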

How the data were processed

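RNA of 15 SCC13 samples was labelled with Cy3 and hybridised to Agilent SurePrint G3 Human 8x60K arrays in 1 colour. The authors deposited spot intensities on a linear scale. Per the file headers, these were made by Agilent's Feature Extraction software (10.7.3.1), which subtracts background, with probes annotated on hg19. They were not normalised between arrays. The intensity of each of 62976 spots was exactly equal, with no tolerance, in the matrix deposited for the series. The number of arrays limits the precision.

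From the log2 intensity of a spot, that of the 75th percentile of non-control spots on its array was subtracted, outlier spots were left out, and spots of a probe were averaged. Probes were named by accession through the RefSeq table. The linear model (limma 3.58.1, R 4.3.3) used all 15 arrays, with a mean for each group and Benjamini-Hochberg adjustment over 22685 probes, at a threshold of 0.05. Single values were also tested with two-sided exact permutation tests, with labels permuted within slides as an addition made after seeing the data. The fit was tested on simulated data with independent noise. These data held no slide effect and no discordant array, so the simulation does not bear on either. Alternatives were normexp with an offset of 50, quantile normalisation, 2 other filters, outlier spots kept, a replicate block, slide as a factor, array weights, fewer groups, the mean of probes, and each array left out. Normexp was planned on mean signals, but the files gave median signals, which were used, a choice made after seeing the data.

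Named genes were KRT14 with every probe, tested keratins of the basal, stress, simple and suprabasal lists by their brightest probe, and other keratins whose brightest probe had an unadjusted p under 0.05. KRT3, KRT73 and other keratins of the slide comparison, KRT76, KRT6B and KRT83 were named after their values were seen. For KRT83 the unadjusted limma p under 0.05 came from its dimmer probe. The members and lists were chosen with earlier results of these data known. Groups and replicate numbers came from the labels. In LPS-treated cells the deviations from the group mean of same-numbered arrays of both lines correlated with 0.42, 0.55, 0.62 and 0.38. These arrays also share a slide, replicates 1 and 2 on slide 1, and 3 and 4 on slide 2. Arrays of different number on the same slide were not compared, so pairing by number cannot be told apart from the slide.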

Additional observations from a re-analysis of the deposited data

Results flagged for a closer look

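KRT8 (A_23_P14072) stood at 6.91 on LPS-treated SCC13-pUNO replicate 1, above the other 3 arrays of its group, which lay between 5.97 and 6.13. It was flagged because the gap to the nearest array made up more of the range of the group (0.833) than Dixon's test allows for 4 arrays. Chance flags about 1 in 20 groups, and 1 of 45 groups of keratin probes was flagged, where 2.25 would be flagged by chance.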

How the results depend on the processing

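Each of the 9 results for KRT14 kept its direction in all 228 alternative values, and 11 of these passed an adjusted limma p of 0.05. The 9 results are 3 probes of 1 gene in 3 overlapping comparisons and are not separate evidence. Some of the values could not move, since leaving out an untreated array does not change the difference in LPS-treated cells. The count of called keratin probes, 0 in each comparison, moved with slide as a factor to 3 in the pooled comparison. With a slide term and without the discordant array (SCC13-pUNO replicate 2 without LPS) it moved to 1 in untreated cells, 3 in LPS-treated cells and 3 pooled. Leaving out 1 array at a time gave 0 to 1 called pooled, with the 1 found without that same array, and 0 elsewhere. The cause was not tested.

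Small differences changed sign. KRT16 moved from -0.14 to 0.024 in untreated cells with slide as a factor, and pooled from -0.02 to 0.017 with normexp, 0.058 with slide and 0.028 with slide and that array left out. In untreated cells KRT17 moved from 0.10 to -0.11 and KRT5 from 0.07 to -0.0080 with array weights. KRT10 pooled moved from -0.04 to 0.0088 with quantile normalisation and 0.046 with array weights. Leaving out 1 array at a time gave -0.098 to 0.038 for KRT16 pooled, -0.045 to 0.22 for KRT17 in untreated cells and -0.11 to 0.044 for KRT10 pooled. The replicate block turned KRT17 in untreated cells to -0.028, where same-numbered arrays of the lines correlated with 0.20, -0.19 and -0.20. Of the 30 single-probe results the replicate block turned no other, and it changed no call. Where a probe was near background, as for KRT6A and KRT76, the signal limits what can be said.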
